A study of Mus musculus with 4 samples.

Results

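The genes described are secreted signals or make them: Csf3, Il11, Il23a, Il17b, Il6 and Lif, which encode cytokines, and Ptgs2, which encodes the prostaglandin-making enzyme cyclooxygenase. They are 7 of the 31053 genes in the deposited count matrices. The genes were selected on their measured UMIs per library and cell class, as cytokines of basal cells, so the levels below describe that choice and carry no test between classes. Droplet-based 3′ RNA libraries came from mammary epithelial cells of FVB mice with the genotype Tfap2cfl/fl / Krt5-CreERT2, harvested at an age of 9 weeks. All 4 mice carried the floxed alleles and the Cre, which is driven by the Krt5 promoter, a promoter of basal cells. From week 4 on, 2 mice were injected with 4-hydroxytamoxifen (4OHT), which activates the Cre, and 2 with corn oil alone, and each mouse gave 1 library. The labels differ on the length of the injections, 5 days in one field and a longer course in another.

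A cell with at least 1000 unique molecular identifiers (UMIs, which count captured transcripts) was called basal where Krt5, Krt14, Krt17 and Acta2 together had at least 5 UMIs and more than 3 times the sum of Krt8, Krt18 and Krt19. The mirror rule gave luminal cells, which were hormone-sensing where Ly6d, Fxyd2 and Gpx3 had at least 3 UMIs and more than Wfdc18, Csn3 and Ltf, and luminal progenitor cells otherwise. Of 18223 deposited cells, 7028 were basal, 5629 luminal progenitor and 1168 hormone-sensing luminal. A further 237 cells fell in an endothelial gate, 131 in a fibroblast gate and 67 in a leukocyte gate. The other 3572 cells with enough UMIs were in no class. The label of the list holds for some of its members only. Il11, Il23a and Il17b had their higher level in basal cells in every library. Among the epithelial classes Il6 did too, from few UMIs, but pooled over libraries it was higher still in the endothelial and fibroblast gates. By level, Csf3 and Lif were instead higher in luminal progenitor cells in 4 of 4 libraries and Ptgs2 in 3 of 4. For Csf3 in corn oil replicate 2 this did not hold for the share of cells, given below.

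Interleukin 6, interleukin 11 and leukaemia inhibitory factor (the product of Lif) belong to one cytokine family. Each binds its own receptor chain and signals through the shared chain Il6st to Janus kinases and the transcription factor STAT3. Lif is known in the mammary gland as a trigger of STAT3 at weaning. Csf3 encodes granulocyte colony-stimulating factor, which drives neutrophil production. Il23a encodes one chain of interleukin 23, which is secreted after pairing with the product of Il12b. Il17b encodes a member of the interleukin 17 family that binds the receptor Il17rb. Ptgs2 is an inducible enzyme that turns arachidonic acid into the precursor of all prostaglandins. Many of these genes are switched on quickly through AP-1, C/EBP, cyclic AMP and NF-kB elements in their promoters, and AP-2γ, the product of Tfap2c, binds GC-rich palindromes.

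On GRCm38, in the GENCODE M21 annotation, Csf3 (ENSMUSG00000038067) lies on chromosome 11 at 98701263 to 98703629 and Lif (ENSMUSG00000034394) on chromosome 11 at 4257557 to 4272514. Ptgs2 (ENSMUSG00000032487) lies on chromosome 1 at 150100031 to 150108227 and Il6 (ENSMUSG00000025746) on chromosome 5 at 30013114 to 30019981. Il11 (ENSMUSG00000004371) lies on chromosome 7 at 4772373 to 4782859 and Il23a (ENSMUSG00000025383) on chromosome 10 at 128296139 to 128298752, both on the minus strand. These 6 genes are protein-coding, and those with no strand given are on the plus strand.

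The 250 bases before the start site show which of these elements each promoter holds, and are given for the members found in the RefSeq promoter table (GRCm38.p6, 4 of 7 members). Capitals mark matches, on either strand, to AP-2 (GCCNNNGGC), AP-1 (TGANTCA), C/EBP (TTGCNNAA), the cyclic AMP element TGACGTCA or its core TGACG, and NF-kB. TATAAA was also searched. The Il11 promoter shown is the second of 2 in the table, and the first held no match. The coordinates are chr1:150099781-150100030 for Ptgs2, chr7:4778142-4778391 (minus strand) for Il11, chr5:30012864-30013113 for Il6 and chr11:4257318-4257567 for Lif.
Ptgs2: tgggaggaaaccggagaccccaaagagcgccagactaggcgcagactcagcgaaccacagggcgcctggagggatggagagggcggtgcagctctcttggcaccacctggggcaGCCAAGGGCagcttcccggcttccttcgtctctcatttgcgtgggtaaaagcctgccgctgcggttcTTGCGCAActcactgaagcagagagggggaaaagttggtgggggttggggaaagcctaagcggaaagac
Il11: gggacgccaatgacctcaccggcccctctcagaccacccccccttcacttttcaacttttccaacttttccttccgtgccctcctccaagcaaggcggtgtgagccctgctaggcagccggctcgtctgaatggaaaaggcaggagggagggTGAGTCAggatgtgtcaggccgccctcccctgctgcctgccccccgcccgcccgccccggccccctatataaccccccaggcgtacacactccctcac
Il6: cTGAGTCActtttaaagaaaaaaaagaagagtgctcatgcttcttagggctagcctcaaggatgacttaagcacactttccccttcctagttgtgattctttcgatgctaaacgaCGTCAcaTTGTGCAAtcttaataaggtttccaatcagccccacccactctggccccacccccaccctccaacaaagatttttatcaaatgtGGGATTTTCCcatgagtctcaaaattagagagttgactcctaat
Lif: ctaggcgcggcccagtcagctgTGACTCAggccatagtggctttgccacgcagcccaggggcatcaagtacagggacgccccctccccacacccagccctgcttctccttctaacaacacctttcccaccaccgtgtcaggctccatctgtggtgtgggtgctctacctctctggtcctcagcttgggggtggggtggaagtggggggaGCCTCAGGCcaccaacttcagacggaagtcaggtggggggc

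The AP-2 match of Ptgs2 spans -136 to -128 from the start and that of Lif -41 to -33. Such a match stood in 13.73% of the 32851 mouse promoters of the same table and length. AP-1 matches stood in Il11 (-98 to -92), Il6 (-249 to -243) and Lif (-228 to -222), against 6.75% of all promoters. Il6 also held the core of the cyclic AMP element at -135 to -131, a C/EBP match at -128 to -121 and an NF-kB match at -44 to -35, against 17.77%, 9.56% and 1.41% of all promoters. The C/EBP match of Ptgs2 was at -69 to -62. These are matches of letters and say nothing about binding.

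Total UMIs per library ranged from 17351950 to 22017878, and a library held 1421 to 2178 basal cells. Median UMIs per basal cell ranged from 2827.5 to 5152.5. Levels are therefore given as CPM, the UMIs of a gene scaled to an equal UMI total for every class and library, and shares of cells with a UMI after thinning each cell to 2000 UMIs. Pairs of libraries shared 18 to 36 cell barcodes. Tfap2c in basal cells was 389 and 285 CPM with corn oil and 285 and 325 CPM with 4OHT (log2 fold change -0.08, SE 0.25, edgeR adjusted p = 1.00). The targeted gene was thus not lower by label, and 3′ counts do not tell its exons apart, so every direction below is that of libraries labelled 4OHT against libraries labelled corn oil. The basal marker list (8 genes, none used by the gate) summed to 1980 to 2907 CPM in basal cells and 200 to 376 CPM in luminal progenitor cells. In basal cells the luminal progenitor list summed to 1127 to 2632 CPM, of which Lcn2 alone gave 965 to 2310 CPM, while Elf5 was 1.22 to 2.43 CPM and Kit was at 0 in 3 of 4 libraries. There the fibroblast list summed to 10.8 to 70.4 CPM and the endothelial list to 9.26 to 55.1 CPM, and Ptprc, the defining leukocyte gene, was at 0 in all 4 libraries.

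Il17b (ENSMUSG00000024578, chromosome 18, 61684887 to 61692538, plus strand, protein-coding) was highest in basal cells. Its level there was 559 CPM in corn oil replicate 1, 490 in corn oil replicate 2, 190 in 4OHT replicate 1 and 514 in 4OHT replicate 2. The first 4OHT library stood apart from the other 3. The thinned share of basal cells with an Il17b UMI was 42.7%, 43.3%, 17.8% and 44.7% in the same order, so fewer cells were positive in that library. In luminal progenitor cells the level was 4.28 to 11.1 CPM and in hormone-sensing cells 1.18 to 10.0 CPM, which overlap. The ratio of basal to luminal progenitor cells was 44.3 to 56.0 within the 4 libraries, including 44.3 in the library with the low level.

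Il23a was also basal. Basal cells had 32.6 and 49.2 CPM with corn oil and 33.2 and 44.9 CPM with 4OHT, so the groups overlapped. Luminal progenitor cells had 2.48 to 6.55 CPM and hormone-sensing cells 0.77 to 5.79 CPM. Cells in no class came near the basal level, with 37.8 CPM pooled over libraries against 39.7 CPM in basal cells. The thinned share in basal cells was 4.04% to 5.61%, against 0.82% to 1.41% in luminal progenitor cells and 0% to 0.85% in hormone-sensing cells. Il11 was 10.8 and 13.3 CPM in the basal cells of the corn oil libraries and 14.0 and 33.1 CPM in those of the 4OHT libraries. The groups did not overlap, but 4OHT replicate 1 lay close to the corn oil libraries. Luminal progenitor cells had 0.28 to 1.61 CPM of Il11, from 27 UMIs in all, and hormone-sensing cells 0.77 to 1.93 CPM.

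Csf3 had its higher epithelial level in luminal progenitor cells. Those cells had 59.4 and 18.8 CPM with corn oil and 86.0 and 108 CPM with 4OHT. Basal cells had 13.2 and 10.6 CPM with corn oil and 46.2 and 34.2 CPM with 4OHT, and luminal progenitor cells were 1.78 to 4.50 times as high within a library. Ptgs2 was 111 and 31.2 CPM in luminal progenitor cells of the corn oil libraries and 127 and 33.8 CPM in those of the 4OHT libraries. Replicate 1 of each group was the higher one. In basal cells Ptgs2 was 15.9 and 13.8 CPM with corn oil and 42.4 and 42.0 CPM with 4OHT, and basal cells were above luminal progenitor cells only in 4OHT replicate 2 (1.24 times). Lif was 22.3 and 17.7 CPM in luminal progenitor cells with corn oil and 18.1 and 14.0 CPM with 4OHT. In basal cells it was 6.80 and 6.12 CPM with corn oil and 10.8 and 9.41 CPM with 4OHT. The ratio of luminal progenitor to basal cells was 1.49 to 3.28. Hormone-sensing cells were the lowest class for Csf3 in 3 of 4 libraries (2.76 to 11.2 CPM over all 4), for Ptgs2 in 4 of 4 (0 to 4.63 CPM) and for Lif in 4 of 4 (2.31 to 5.88 CPM).

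Many of these UMIs sat in few cells. The 10 cells with the most Csf3 held 38.7% to 49.3% of the basal UMIs and 41.8% to 81.6% of the luminal progenitor UMIs of a library, with up to 90 UMIs in 1 luminal progenitor cell. In basal cells the thinned share with a Csf3 UMI was 2.05% (exact 95% interval 1.39 to 2.92) and 1.54% (1.02 to 2.24) with corn oil, and 5.19% (4.05 to 6.53) and 3.56% (2.75 to 4.52) with 4OHT. In luminal progenitor cells it was 4.09% and 1.46% with corn oil, and 6.20% and 4.70% with 4OHT. In corn oil replicate 2 it was thus not above the basal share, and there 10 luminal progenitor cells held 81.6% of the Csf3 UMIs. The share of basal cells with a Ptgs2 UMI was 2.60% (1.85 to 3.55) and 2.06% (1.45 to 2.84) with corn oil, and 5.34% (4.19 to 6.70) and 5.34% (4.34 to 6.48) with 4OHT. In hormone-sensing cells, with median depths of 4745.5 to 8258 UMIs, the shares were 0.66% to 2.12% for Csf3 and 0% to 1.32% for Ptgs2. The corn oil shares of Csf3 in basal cells lay within that range, and free RNA was not measured. These intervals cover counting error only.

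Il6 in basal cells was 1.85 and 7.95 CPM with corn oil and 9.77 and 16.4 CPM with 4OHT, from 233 UMIs in 99 cells. A single cell held 29 of the 52 UMIs of corn oil replicate 2, and another 30 of the 58 UMIs of 4OHT replicate 1. Luminal progenitor cells had 0 to 3.70 CPM, and their 41 UMIs sat in 8 cells. The gates outside the epithelium held more. Pooled over libraries, Il6 was 447 CPM in the endothelial gate and 168 CPM in the fibroblast gate, against 8.58 CPM in basal cells. Csf3 was 447 CPM in the endothelial gate as well, from 268 UMIs for each gene. A single endothelial cell held 124 of the Il6 UMIs and another 56 of the Csf3 UMIs, and without these cells the levels were 242 and 355 CPM. The endothelial values came mainly from 2 libraries: Csf3 was 446 CPM in corn oil replicate 2 and 559 CPM in 4OHT replicate 2, and Il6 868 and 281 CPM. The other 2 libraries had 4 and 29 endothelial cells. Ptgs2 was 223 CPM in the leukocyte gate, from 34 UMIs in 2 cells, 88.1 CPM in the fibroblast gate and 8.33 CPM in the endothelial gate. Il11, Il23a, Il17b, Il6 and Lif had no UMI in the 67 leukocytes, which allows a level of up to 19.7 CPM, and Il23a none in the 131 fibroblasts.

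**Figure D1:**
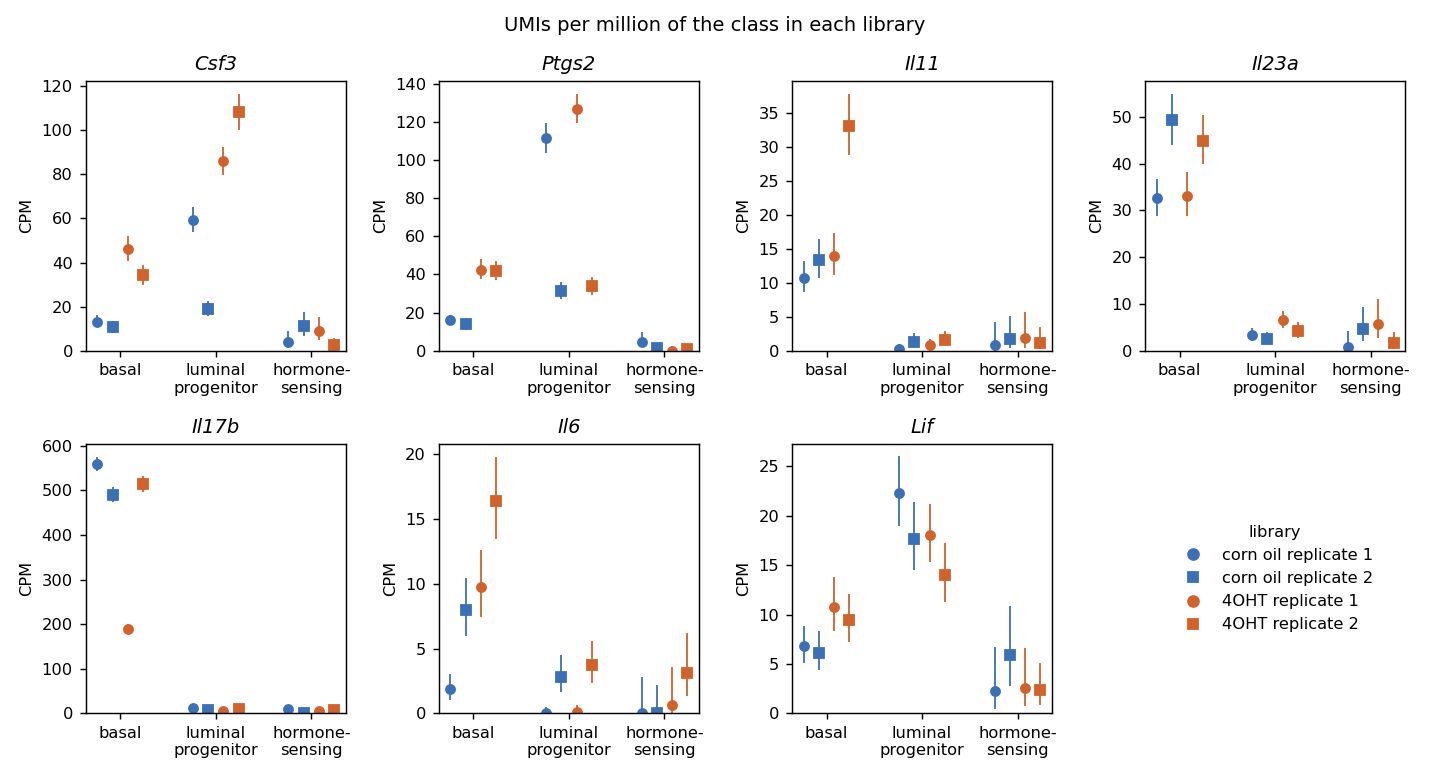
Level of each gene in CPM (vertical axis, linear, own scale per gene) in 3 epithelial classes. Each point is 1 library (blue corn oil, orange 4OHT; circle replicate 1, square replicate 2) and bars are exact 95% Poisson intervals, which cover counting error only. Il11, Il23a, Il17b and Il6 stand highest in basal cells, and Csf3 and Lif in luminal progenitor cells.

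**Figure D2:**
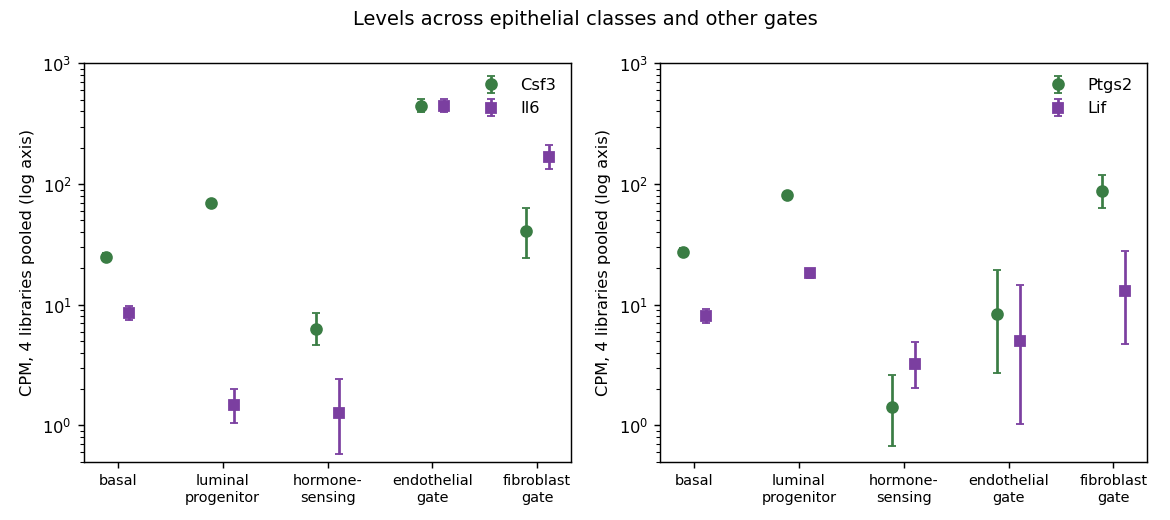
Csf3 and Il6 (left) and Ptgs2 and Lif (right) in CPM on a log axis, pooled over 4 libraries, in the 3 epithelial classes and the endothelial and fibroblast gates. Bars are exact 95% Poisson intervals. Csf3 and Il6 reach 447 CPM in the endothelial gate, and Ptgs2 88.1 CPM in the fibroblast gate.

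The comparison of 4OHT with corn oil is one of treatment labels, since Tfap2c was not lower in basal cells of the 4OHT libraries. All mice carried the Cre and the floxed alleles. An effect of 4OHT itself therefore cannot be told apart from one of Tfap2c deletion. In basal cells, Csf3 and Ptgs2 were higher in both 4OHT libraries than in both corn oil libraries. The fitted fold was 3.46 for Csf3 (log2 1.79, SE 0.27) and 2.94 for Ptgs2 (log2 1.56, SE 0.26). Neither passed the threshold of edgeR's quasi-likelihood test after Benjamini-Hochberg adjustment over all genes (adjusted p = 0.604 for both). Among the 10788 genes tested, Csf3 had the 3rd smallest and Ptgs2 the 10th smallest p. Il11 (log2 1.05, SE 0.48), Il6 (1.49, SE 0.68) and Lif (0.69, SE 0.29) also had both 4OHT libraries above both corn oil libraries, and Il23a (-0.01, SE 0.35) and Il17b (-0.48, SE 0.49) did not.

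All 7 members passed the filter on low counts, and 0 of 7 passed the adjusted threshold, as did 0 of all genes (0%). By DESeq2 38 genes passed. At an unadjusted p under 0.05, edgeR called 2 of 7 members and 465 genes, 4.31% of all tested. In 5 of 7 members the groups did not overlap with 4OHT higher, against 13% of all genes. The median log2 fold change was 1.05 over the members and -0.02 over all genes. The members were listed with results of these libraries known, so these counts are not independent evidence. P-values measure the spread between 2 mice a group. Over 15 alternative settings, the fold of Csf3 stayed between 1.24 and 2.05 on the log2 scale and its adjusted p ranged from 0.00107 to 0.794, passing in 5. Ptgs2 stayed between 1.47 and 2.13, with adjusted p from 0.0021 to 0.692, passing in 4. Both counts of passes include fits that left 1 library in a group. Under DESeq2 the adjusted p was 0.00123 for Csf3 and 0.0057 for Ptgs2.

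Single libraries decided some of these values. Fits without 1 library leave 1 library in a group, so only their sizes are given here. Without 4OHT replicate 2, the log2 fold change of Il11 was 0.17, and without 4OHT replicate 1 it was 1.60. The log2 fold change of Il17b was 0.12 without 4OHT replicate 1, the library with the low level, and -1.51 without 4OHT replicate 2. That of Il6 was 2.96 without corn oil replicate 2 and 1.89 without 4OHT replicate 1, the libraries in which 1 cell held most UMIs. It was 0.74 without corn oil replicate 1 and 0.94 without 4OHT replicate 2. With 1 library left out, the log2 fold change of Csf3 stayed between 1.67 and 1.92 and that of Ptgs2 between 1.47 and 1.65.

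In luminal progenitor cells, 6 of 7 members were tested and 0 passed the adjusted threshold, as did 0 of 10120 genes (0%), whereas DESeq2 called 1 gene. Unadjusted, 1 member (Csf3) and 166 genes (1.64%) were called. Csf3 again had both 4OHT libraries above both corn oil libraries (log2 1.39, SE 0.49, edgeR adjusted p = 1.00), as did Il23a (0.97, SE 0.45, edgeR adjusted p = 1.00), against 7.33% of all genes. On the log2 scale Csf3 was 2.52 without corn oil replicate 1, 1.60 without 4OHT replicate 1 and 0.78 without corn oil replicate 2. Ptgs2 was 0.22 (SE 0.65), and it ranged from -0.94 without 4OHT replicate 1 to 1.47 without corn oil replicate 1. Lif was -0.23 (SE 0.31), Il17b -0.41 (SE 0.46) and Il6 0.57 (SE 1.39). In hormone-sensing cells only Csf3 (-0.56, SE 0.72) and Il17b (0.36, SE 0.75) had enough counts, and 0 of these 2 passed. Over all 7589 genes 1 passed (0.0132%), and 3.14% were called unadjusted.

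The difference of the 4OHT effect between basal and luminal progenitor cells was tested as an interaction. None of the 7 members passed, as did none of 11434 genes (0%), and DESeq2 called 1 gene. Unadjusted, 1 member (Lif) and 429 genes (3.75%) were called. The difference was 0.23 (SE 0.45) for Csf3, 1.32 (SE 0.66) for Ptgs2, and 0.90 (SE 0.36) for Lif on the log2 scale, and the ratio of the folds was 0.50 for Il23a (SE 0.51 on the log2 scale), each with an edgeR adjusted p of 1.00. For Ptgs2 it was 2.15 without corn oil replicate 2 and 2.33 without 4OHT replicate 1. It was 0.34 without corn oil replicate 1 and 0.33 without 4OHT replicate 2. An effect limited to basal cells was therefore not shown for any member.

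**Figure D3:**
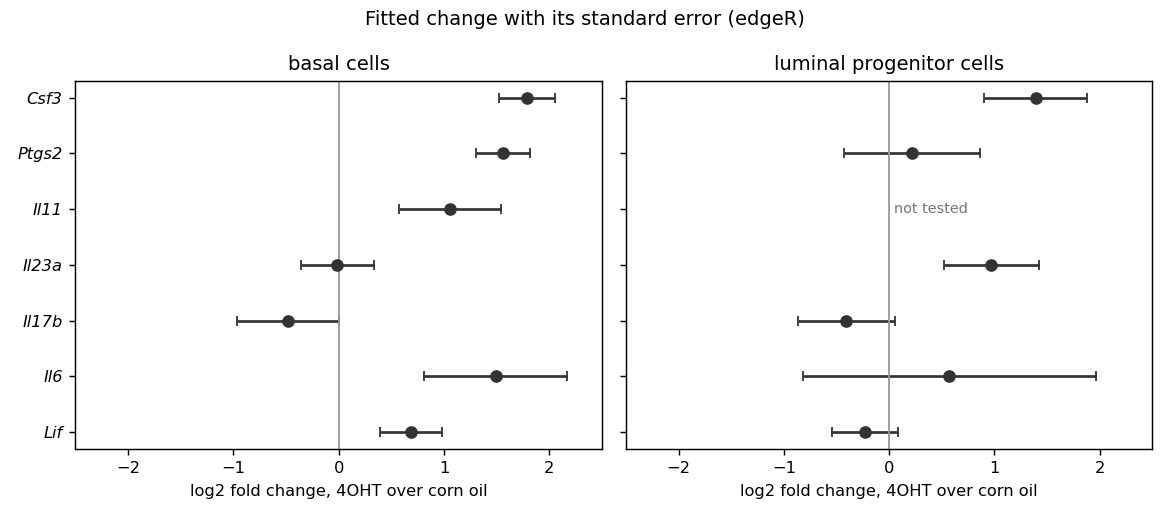
Fitted log2 fold change of 4OHT over corn oil for each gene (points) with its standard error (bars) in basal cells (left) and luminal progenitor cells (right), 2 libraries a group. Csf3 and Ptgs2 have the smallest standard errors beside their size in basal cells (1.79 with 0.27, 1.56 with 0.26), and Il11 was not tested in luminal progenitor cells.

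The receptors and partners of these cytokines were measured in the same cells. Of 13 receptor genes, 7 were tested in basal cells and 0 passed in either direction. Il6st, the shared chain of the interleukin 6 family, was 68.3 and 52.5 CPM with corn oil and 68.7 and 49.2 CPM with 4OHT. Lifr, the receptor of the Lif product, was 57.6 and 42.8 CPM with corn oil and 32.3 and 21.1 CPM with 4OHT, lower without overlap (log2 -0.88, SE 0.28, edgeR adjusted p = 1.00), and was singled out after its values were seen. Pooled over libraries, Lifr was 39.7 CPM in basal and 4.22 CPM in luminal progenitor cells, Il11ra1 26.8 and 10.8 CPM, and Il6ra 6.74 and 3.97 CPM. In hormone-sensing cells Lifr was 38.2 CPM, Il11ra1 18.2 CPM and Il6ra 1.55 CPM. In the same order the endothelial gate had 50.0, 18.3 and 11.7 CPM and the fibroblast gate 32.2, 217 and 23.6 CPM. These receptors were thus not particular to basal cells. Il17rb, the receptor for the Il17b product, had 17 UMIs in all basal cells (0.63 CPM) and none in the endothelial, fibroblast or leukocyte gates. Those gates are small, and no UMI there allows up to 5.00, 6.45 and 19.7 CPM, above the basal level. Csf3r had 3 UMIs in basal cells and Il23r 5. Il12b, the partner needed for secreted interleukin 23, had no UMI in the 3 classes and 3 gates, and Il12a and Osm had none either. This allows up to 0.11 CPM in basal cells, but up to 19.7 CPM in the leukocyte gate. Of the 9 partners and related ligands 3 were tested and 0 passed. Among prostaglandin genes 7 of 12 were tested and 0 passed. Ptges3, a gene named for prostaglandin E synthase and the highest of this list in basal cells, was 314 and 296 CPM there with corn oil. With 4OHT it was 281 and 238 CPM (log2 -0.19, SE 0.20). Ptges was 58.9 and 66.1 CPM in basal cells with corn oil and 49.5 and 78.5 CPM with 4OHT, and 181 to 215 CPM in luminal progenitor cells. The prostaglandin E receptor Ptger4 was 2.58 CPM in basal and 13.1 CPM in luminal progenitor cells. Another, Ptger2, was 5.27 and 5.37 CPM, and Ptger1 and Ptger3 had 3 UMIs each in basal cells.

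Of the other fixed lists, 1 of 5 further interleukin 17 ligands, 3 of 4 colony-stimulating factors and 3 of 15 further interleukins were tested in basal cells, and 0 passed. Il17d, of the first list, had 3 to 13 UMIs a library. Kitl, the ligand of Kit, was 129, 93.0, 113 and 86.4 CPM. Tslp, an epithelial cytokine, was 1.98 and 6.12 CPM with corn oil and 6.91 and 17.5 CPM with 4OHT (log2 1.68, SE 0.69, edgeR adjusted p = 1.00). Of 10 genes of Janus kinase and STAT3 signalling 9 were tested and 0 passed, with a median log2 fold change of 0.10. Junb, an AP-1 gene, was 748 and 1054 CPM with corn oil and 1253 and 1495 CPM with 4OHT. Of 13 regulators of cytokine transcription and mRNA decay 13 were tested, 0 passed and 9 were higher with 4OHT, 5 without overlap (median 0.20), against 48.09% of all genes higher and 13% higher without overlap. Nfkbia, the NF-kB inhibitor that NF-kB itself induces, was 416, 660, 910 and 1005 CPM. Zfp36, which destabilises cytokine mRNAs, was 119, 204, 406 and 259 CPM.

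Genes known to respond to tissue dissociation were set beside the members. Of 12 such genes 12 were tested and 0 passed, and 10 were higher with 4OHT, 4 of them without overlap (median log2 0.27), beside the same shares of all genes (48.09% and 13%). Fos was 171 and 298 CPM with corn oil and 530 and 535 CPM with 4OHT, Fosb 8.65, 11.5, 22.2 and 18.4 CPM, and Egr1 85.8, 143, 315 and 219 CPM. Hspb1, a small heat shock protein, was 5143, 8728, 7693 and 7910 CPM. The summed level of the list was 10064 and 14384 CPM with corn oil and 14249 and 13934 CPM with 4OHT, which overlap. The part of this response in the higher Csf3 and Ptgs2 of the 4OHT libraries was not tested.

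Within basal cells, the members overlapped unevenly. After thinning, Csf3 and Lif shared 17 basal cells where 2.72 were expected if they were spread independently within each library, a ratio of 6.26. Of the 17 cells 16 came from the 4OHT libraries, with 8 and 8 against 1.30 and 0.89 expected. The corn oil libraries had 0 and 1 against 0.33 and 0.20, so most of the expected cells also lay in the 4OHT libraries. Ptgs2 and Il11 shared 16 cells against 7.20 expected, and Csf3 and Il11 12 against 5.44. Csf3 and Ptgs2 shared 13 against 8.38. Il17b ran the other way: it shared 26 cells with Il11 against 70.7 expected (0.37) and 53 with Ptgs2 against 87.2 (0.61), below expectation in 4 of 4 libraries for both. Il23a and Ptgs2 shared 7 cells against 12.5 (0.56), but 14 against 15.3 (0.92) at a thinning depth of 3000 UMIs, where 2 of 4 libraries were above expectation. In luminal progenitor cells, a comparison chosen after the basal values were seen, Csf3 and Ptgs2 shared 35 cells against 15.8 expected. Cells are not replicates and the counts are sparse, so these are descriptions without a test.

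**Figure D4:**
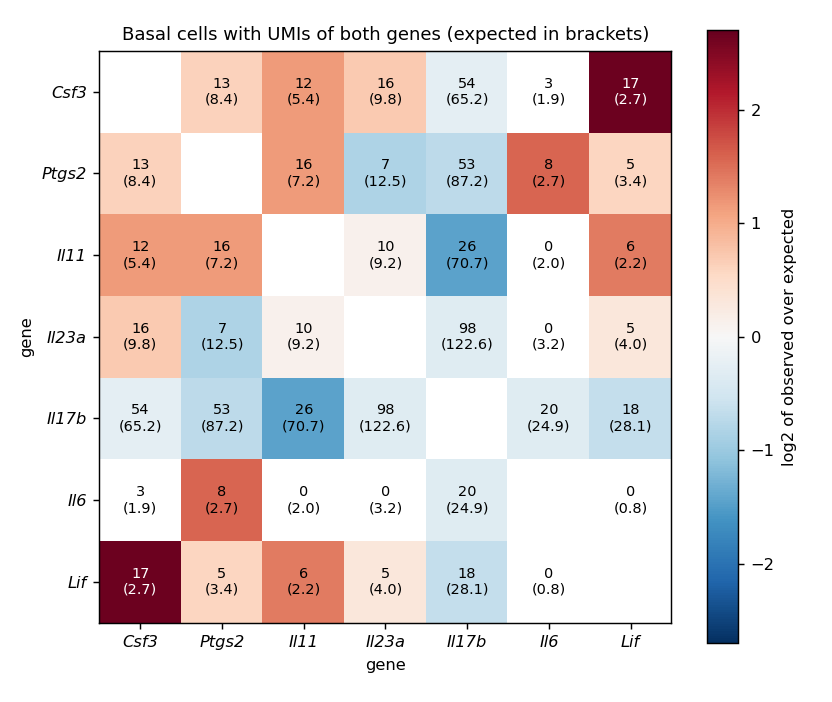
Basal cells, thinned to 2000 UMIs, that held UMIs of both genes of a pair (rows and columns), with the number expected from each library's shares in brackets. Colour is log2 of observed over expected, and pairs with fewer than 5 cells are left white. Csf3 with Lif is the pair farthest above expectation, and Il17b with Il11 the coloured pair farthest below.

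Some genes were found more often beside each member. By a set rule, the 5 genes with the highest mean log2 ratio of detection in cells with against without a member were named. Cells with Csf3 more often held Ets1, a transcription factor (14.1% to 23.3% of cells against 5.52% to 6.92%), Cxcl1, a neutrophil-attracting chemokine (11.1% to 32.4% against 5.98% to 10.6%), Glrx, Ehd1 and Adamts4. Cells with Ptgs2 more often held the carbonic anhydrase Car13 (30.6% to 45.8% against 9.83% to 16.2%), Ets1, the adenylate kinase Ak1, the calcineurin inhibitor Rcan1 and Id3. Cells with Il11 more often held Fermt1, an integrin activator (16.7% to 35.0% against 6.31% to 9.74%), and Ptges, the prostaglandin E synthase downstream of cyclooxygenase (14.3% to 36.1% against 8.42% to 11.8%), with Ifitm10, the Notch ligand Jag1 and Lrrfip2.

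Cells with Il23a more often held Angptl6 (19.1% to 33.3% against 5.88% to 7.27%), the endoplasmic reticulum isomerase Fkbp11 (16.2% to 34.4% against 6.83% to 8.33%), Thyn1, Magt1 of the glycosylation machinery and the serine synthesis enzyme Psph. Creld2, an endoplasmic reticulum stress gene ranked just after these and singled out after its values were seen, was in 30.9% to 67.7% of cells with Il23a and 13.8% to 19.6% of cells without. Cells with Il17b more often held the apolipoprotein Apoc1 (21.8% to 35.1% against 8.73% to 18.2%), 1600014C10Rik, Lgals9, the interferon-induced Isg15 (7.96% to 27.5% against 4.52% to 14.5%) and the neurotrophic ligand Nrtn. Il6 and Lif had too few cells, with 6 and 13 in the library with the fewest. Many of these names depended on the setting. At a thinning depth of 3000 UMIs the 5 top genes shared 2 with those above for Csf3 (Ets1 and Cxcl1), 2 for Ptgs2 (Car13 and Id3), 2 for Il17b (Apoc1 and 1600014C10Rik) and 0 for Il23a, which was led by Aldh1l2, Hyou1, Got1, Stc2 and Plpp5. With gates of 10 UMIs and 10 times they shared 1 for Ptgs2 (Car13), 1 for Il23a (Psph) and 2 for Il17b (Apoc1 and 1600014C10Rik). Too few cells were left for Il11 under both settings and for Csf3 under the stricter gates.

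**Figure D5:**
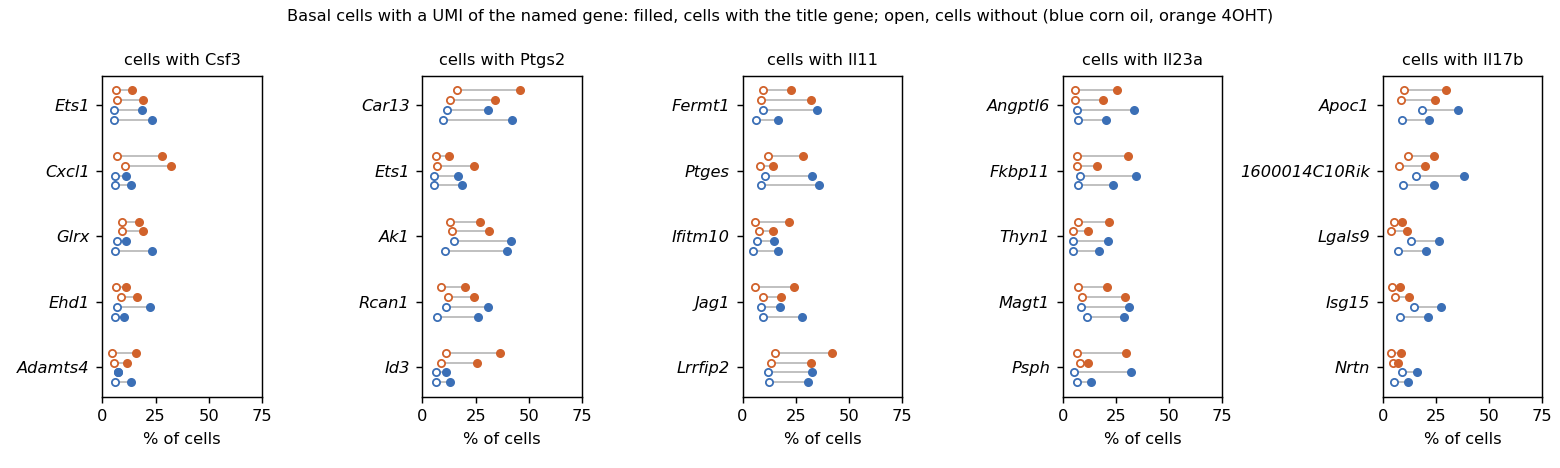
Percent of thinned basal cells with a UMI of each named gene (horizontal axis), in cells with (filled) and without (open) the gene of the panel title, joined by a line for each library (blue corn oil, orange 4OHT). In the 5 panels every filled point lies to the right of its open point, as the naming rule requires, and Car13 reaches 45.8% of cells with Ptgs2.

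Basal cells with Il23a held fewer preparation-stress transcripts than other basal cells, and those with Ptgs2 held more Hspb1. The summed level of the 12 preparation-stress genes was 24421, 27944, 24421 and 25891 CPM in cells with Ptgs2, in the order corn oil 1, corn oil 2, 4OHT 1 and 4OHT 2. In cells without Ptgs2 it was 11114, 14954, 15281 and 13145 CPM, so the ratio was 1.60 to 2.20. In cells with Il23a the sum was 3873, 5473, 6331 and 6639 CPM, against 11779, 15768, 16286 and 14252 CPM in cells without, a ratio of 0.33 to 0.47. Hspb1 was 14434 to 19403 CPM in cells with Ptgs2 against 5824 to 9255 CPM without, and 983 to 3132 CPM in cells with Il23a against 6260 to 9864 CPM without. Without Hspb1, a sum added after these values were seen, the ratio for Ptgs2 was 0.92 to 1.89 and below 1 in 4OHT replicate 1, and for Il23a it was 0.44 to 0.72. Of the 12 genes, 9 were lower in cells with Il23a in all 4 libraries, among them Fos, Jun, Egr1 and Hspa1a, and Ier3 was higher in all 4. In cells with Ptgs2, Jun, Atf3, Hspa1a and Hspb1 were higher in all 4 libraries and Ier3 was lower. With gates of 10 UMIs and 10 times, 2 genes were higher in all 4 libraries in cells with Ptgs2, and 9 stayed lower in cells with Il23a. For Csf3 the ratio was 0.85 to 1.06. For Il6 it was 1.52 to 2.01 (above 1 in 3 of 4 libraries without Hspb1), with few cells. The gene-by-gene values were looked at after the sums. In luminal progenitor cells the ratio for Ptgs2 was below 1 in 3 of 4 libraries (0.79 to 1.65).

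The summed level of the 13 regulators of cytokine expression, to which abundant genes such as Nfkbia add most, was higher in cells with Ptgs2 (ratio 1.60 to 1.78), Csf3 (1.26 to 1.84), Lif (1.34 to 2.16) and Il6 (1.77 to 2.45), and lower in cells with Il23a (0.52 to 0.68). The Janus kinase and STAT3 list had ratios of 1.24 to 1.69 in cells with Ptgs2 and 0.43 to 0.60 in cells with Il23a. Junb (748 to 1495 CPM in basal cells) and Socs3 (191 to 505 CPM) add most to this sum, against 166 to 201 CPM for Stat3. Socs3 is also on the preparation-stress list, so these ratios are not a measure of STAT3 signalling alone. Summed marker lists of other cell types moved with some members. Cells with Il23a had 50.8, 96.8, 36.8 and 39.6 CPM of the leukocyte list against 12.1, 20.2, 10.1 and 8.2 CPM in cells without, while Ptprc was at 0 in basal cells. Over all basal cells this list summed to 13.1, 23.55, 10.95 and 12.29 CPM. Cd74 alone gave 11.4, 19.0, 7.24 and 11.1 CPM of it, so the sum says little about the other leukocyte genes. Cells with Il6 in corn oil replicate 2 had 650 CPM of the fibroblast list against 44.3 CPM in cells without. The part of transcripts from other cells in the Il23a and Il6 levels was not tested.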

How the data were processed

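Raw UMI counts per gene and cell were deposited for 4 libraries (2 corn oil, 2 4OHT). The authors made these counts with Cell Ranger 3.0.1 and an mm10 reference, per the submitters' processing notes; base calls were converted with bcl2fastq. How introns were counted and cells called is not given in the sources used here. Samples were grouped by the treatment label. Cells were classed by the keratin rule above. Summed counts of a class in each library entered edgeR 4.0.16 in R 4.3.3 (TMM factors, filterByExpr, quasi-likelihood F-test, Benjamini-Hochberg adjustment, threshold 0.05); DESeq2 1.42.0 was an alternative. The difference between classes was an interaction with library as a block. Shares used cells thinned to 2000 UMIs, which left out 34 to 379 basal cells a library; their 95% intervals are Clopper-Pearson (exact), and 0 counts were read as at most 3. Doublets were scored with Scrublet in scanpy 1.11.5, whose automatic threshold marked 0.04% to 0.15% of cells and was not used; the 682 cells with the highest scores (0.8% per 1000 cells) were left out in an alternative only. Other alternatives changed the scaling, count filter, minimum UMIs, mitochondrial limit, gates, replicates and replicate block. The members, gene lists and tests were chosen with earlier results of these data known. Genes of the lists were named where they had the highest mean CPM of their list in basal cells, or a mean of at least 5 CPM, a log2 fold change of at least 1 in size and no overlap of groups. One gene that this rule names is not reported here. Co-detected genes needed detection in at least 5% of basal cells and 20 cells with the member in every library. On simulated counts of 10574 genes for the basal comparison, the test found 81.5% of 200 genes shifted by 2 on the log2 scale, with 26 false calls. The false calls were a larger share of all calls than the threshold of 0.05. No member had a fitted basal change as large as 2 (the largest was 1.79, for Csf3), so the share found does not carry over to them.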

Additional observations from a re-analysis of the deposited data

Results flagged for a closer look

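Among the 3572 cells that fell in no class or gate, which enter no test above, 2 members had both 4OHT libraries above both corn oil libraries. Il23a was 30.3 and 31.9 CPM with corn oil and 42.2 and 41.4 CPM with 4OHT, the lower of the latter being 41.4 CPM. Lif was 5.15 and 8.40 CPM with corn oil and 14.9 and 11.1 CPM with 4OHT, the lower of the latter being 11.1 CPM. In these cells 8306 genes averaged 5 CPM or more, and 10.0% of them had the same order. No test was run on these cells. Il23a showed this order in luminal progenitor cells but not in basal cells, and Lif in basal cells but not in luminal progenitor cells.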

How the results depend on the processing

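In basal cells the count of genes passing was 0 and became 93 without a count filter, 38 with DESeq2 and 17 to 127 with 1 replicate left out. In luminal progenitor cells the same settings took 0 to 39, 1 and 35 to 64, and in hormone-sensing cells 1 to 59, 7 and 4 to 77. There a mean of at least 20 CPM and at least 2000 UMIs per cell each gave 0. For the difference between classes they gave 55, 1 and 0 to 63. With the replicate number as a block, 171 basal, 9 luminal progenitor and 3 hormone-sensing genes passed, and the edgeR adjusted p was 0.00191 for Csf3, 0.0021 for Ptgs2 and 0.0306 for Il6 in basal cells. Deviations of same-numbered libraries correlated at 0.56, 0.32 and 0.22, but the labels do not say that numbers pair mice. The sign of Il23a in basal cells turned with upper-quartile factors (0.019), at least 2000 UMIs (0.029), without cells holding UMIs of other cell types (0.052) and without the highest doublet scores (0.055). With 1 replicate left out, basal values ranged from -0.36 to 0.40 for Il23a and from -1.51 to 0.12 for Il17b. In luminal progenitor cells they ranged from -3.28 to 6.83 for Il6, -0.41 to 0.00068 for Lif, -0.94 to 1.47 for Ptgs2 and -1.18 to 0.13 for Il17b. In hormone-sensing cells they ranged from -1.51 to 0.58 for Csf3 and -0.50 to 2.36 for Il17b. For the difference between classes they ranged from -0.61 to 0.92 for Csf3, -0.95 to 0.75 for Il11 and -3.76 to 3.94 for Il6, and gates of 10 UMIs and 10 times gave -0.50 for Csf3, 0.51 for Il17b and -1.31 for Il6. Where 1 library is left, it is assumed to vary like the others. Dropping the count filter passed Csf3 in luminal progenitor cells (edgeR adjusted p = 0.0178) and the class difference of Ptgs2 (0.0476). Of 42 alternative levels 41 moved by less than 1 SD between libraries, the exception being Il23a at the stricter gates (30.2 CPM). Of 28 shares at another thinning depth or none, 14 moved further. The cause of these shifts was not tested. Il6 and Lif counts in basal cells limit their precision.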
